A study of Mus musculus with 2 samples.

Results

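DNase I hypersensitivity was examined over 10 genes that encode transcription factors and cofactors of red cell and stem cell programs: *Gata1*, *Gata2*, *Gata3*, *Tal1*, *Lyl1*, *Lmo2*, *Zfpm1*, *Klf1*, *Gfi1b* and *Nfe2*. The genes are given by name and no measured value enters the rule, although the list was drawn up with earlier results of these data known. A transcript belonged to a gene when its name without the trailing number equaled the gene symbol, and the transcript covering the most windows stood for the gene. The 10 genes had 36 of the 55432 transcripts and were 10 of 22605 genes in all. M1 is a leukemia line of mouse myeloid progenitors that matures toward macrophages in the presence of the cytokine interleukin-6 (IL-6). One library came from untreated M1 cells and one from M1 cells kept in IL-6 for 4 to 5 days, both from the same line in the same serum-containing medium. The libraries hold DNA released between a pair of DNase I cuts in intact nuclei (DHS-seq). A signal is therefore a number of reads from accessible DNA and not a level of RNA.

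The GATA proteins are zinc finger factors that bind the letters GATA. GATA2 acts in stem and progenitor cells, GATA1 in red cells, megakaryocytes and mast cells, and GATA3 in T cells. TAL1 and its close relative LYL1 are basic helix-loop-helix proteins that pair with E proteins on E-boxes, and LMO2 is the LIM protein that bridges them to GATA factors. ZFPM1 (FOG-1) is a cofactor of GATA1. KLF1 binds CACCC-boxes in globin and other red cell genes, NFE2 is the large subunit of NF-E2 and pairs with small MAF proteins, and GFI1B is a repressor in red cells and megakaryocytes. Maturation of myeloid cells depends on other factors, such as PU.1 and the C/EBP proteins.

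For each transcript the deposited values are the mean and the SD over the 700-bp windows, laid end to end from the start of each chromosome, that its coding span touches. Coding span here means start codon to stop codon with the introns between. Mean times windows came out as whole reads in 100% of the rows, with 1 read worth 1.0 in untreated and 1.038 in IL-6-treated cells. Non-overlapping coding spans held 9115986 reads in untreated and 8557991 in IL-6-treated cells, which is 7.58 and 7.12 reads per window before scaling. With 1 library of each kind, no difference has a replicate check, and the 95% intervals cover counting error of these libraries only. Reads were not marked as separate molecules, so that copies made in amplification are counted as if they were independent. The measured windows leave out the start sites of several genes. By GENCODE M1, 5 of the 10 genes (*Gata1*, *Lmo2*, *Zfpm1*, *Klf1* and *Nfe2*) had at least 1 annotated start site inside a measured window, and the other 5 had none.

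Sequences are given for 5 places, the start codons of the strong genes *Lyl1*, *Klf1*, *Nfe2* and *Tal1* and the start site window of *Lmo2*, since the lower signal after IL-6 was found in spans that begin there. All are read 5′ to 3′ from NCBIM37, the build of the table. For *Tal1*, *Lyl1*, *Klf1* and *Nfe2* they are the 240 bases from the start codon, coding sequence that runs into the first coding intron where the exon is shorter. For *Lmo2* they are the 240 bases before the start site of its transcript Lmo2-001, a site that lies within an intron of the longer transcripts. Capitals mark matches on either strand to 4 motifs. These are the GATA motif (the letters GATA after A or T and before A or G), the E-box CANNTG bound by TAL1 and LYL1 dimers, the CACCC-box CCNCNCCC bound by KLF1, and the NF-E2/AP-1 motif TGANTCA. Overlapping matches run together.
Tal1, chr4:114735736-114735975, plus strand: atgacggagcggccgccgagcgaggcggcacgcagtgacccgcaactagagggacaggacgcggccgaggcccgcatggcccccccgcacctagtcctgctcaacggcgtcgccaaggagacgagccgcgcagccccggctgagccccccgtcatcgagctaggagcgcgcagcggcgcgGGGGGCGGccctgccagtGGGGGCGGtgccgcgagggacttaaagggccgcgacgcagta
Lyl1, chr8:87226563-87226802, plus strand: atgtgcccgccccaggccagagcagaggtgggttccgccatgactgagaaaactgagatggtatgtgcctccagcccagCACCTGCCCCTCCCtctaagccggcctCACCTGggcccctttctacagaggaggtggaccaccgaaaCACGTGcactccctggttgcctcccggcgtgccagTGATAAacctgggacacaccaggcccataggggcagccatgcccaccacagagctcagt
Klf1, chr8:87425874-87426113, plus strand: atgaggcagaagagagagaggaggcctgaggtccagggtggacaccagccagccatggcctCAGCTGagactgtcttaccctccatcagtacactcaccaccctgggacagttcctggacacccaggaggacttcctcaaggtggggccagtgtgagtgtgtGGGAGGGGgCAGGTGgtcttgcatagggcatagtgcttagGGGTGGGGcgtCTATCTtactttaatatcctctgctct
Nfe2, chr15:103081234-103081473, minus strand: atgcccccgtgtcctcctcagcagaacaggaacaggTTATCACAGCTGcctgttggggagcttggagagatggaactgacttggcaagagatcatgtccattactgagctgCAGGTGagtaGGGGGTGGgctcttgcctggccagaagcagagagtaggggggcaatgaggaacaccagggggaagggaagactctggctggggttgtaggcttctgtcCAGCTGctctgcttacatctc
Lmo2, chr2:103810046-103810285, plus strand: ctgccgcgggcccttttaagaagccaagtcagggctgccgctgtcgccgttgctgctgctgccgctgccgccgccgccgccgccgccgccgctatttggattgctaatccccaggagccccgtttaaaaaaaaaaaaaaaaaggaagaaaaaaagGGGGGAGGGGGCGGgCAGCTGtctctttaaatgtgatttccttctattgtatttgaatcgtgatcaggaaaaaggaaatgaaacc
The *Tal1* stretch was the richest in G and C, at 74.6%, and had 2 CACCC-box matches and no match to the other 3 motifs. *Lyl1* had 1 GATA motif, 3 E-boxes and 1 CACCC-box, *Klf1* had 1, 2 and 2, and *Nfe2* had 1, 3 and 1. In *Nfe2* the GATA motif, read from the opposite strand, is followed by an E-box with no base between them. *Lmo2* had 3 overlapping CACCC-box matches and 1 E-box. No NF-E2/AP-1 motif was in any of the 5 stretches. Among the first 240 bases after the start codon of all 22605 genes, 21.3% held a GATA motif, 65.3% an E-box, 31.0% a CACCC-box and 4.39% an NF-E2/AP-1 motif. Among the 240 bases before the start site, the shares were 23.8%, 61.8%, 50.5% and 5.70%. The motifs are a description of the letters and are no evidence of binding.

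In untreated M1 cells the 10 genes spanned a wide range of accessibility, and the order did not follow the division between stem cell and red cell factors. *Lyl1* had by far the most signal, *Klf1*, *Nfe2*, *Zfpm1* and *Tal1* were well above the typical gene, *Gfi1b*, *Lmo2* and *Gata2* were slightly above it, and *Gata1* and *Gata3* were below it. In IL-6-treated cells the range was narrower. *Lyl1*, *Klf1*, *Tal1*, *Nfe2*, *Zfpm1* and *Lmo2* had less signal and *Gata3* had more, beyond counting error, while the intervals of *Gata1*, *Gata2* and *Gfi1b* included no change. With another scaling of the libraries, given further on, the 6 lower genes have log2 ratios above 0. The median gene had 7.75 reads per window in untreated and 8.14 in IL-6-treated cells.

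**Figure D1:**
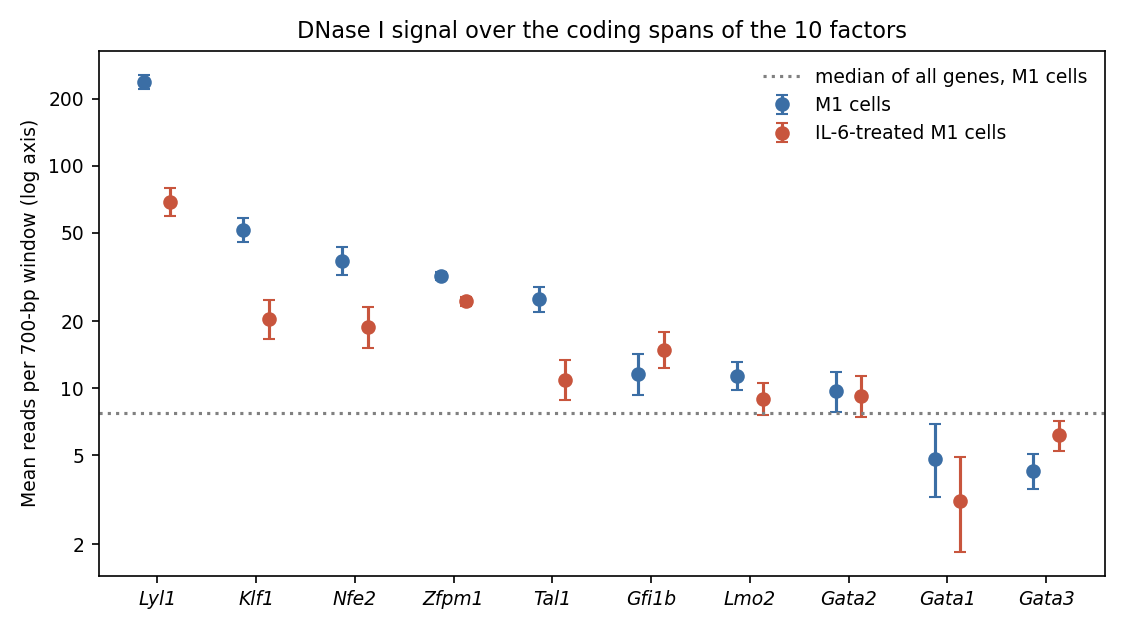
Mean reads per 700-bp window (log axis) over the coding span of each gene, in untreated and IL-6-treated M1 cells, with exact 95% Poisson intervals of the reads and the median of all genes in untreated cells as a dotted line. Means in untreated cells run from 239 for *Lyl1* to 4.25 for *Gata3*, and after IL-6 from 68.9 for *Lyl1* to 3.11 for *Gata1*.

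Of the basic helix-loop-helix pair, *Lyl1* was the most accessible gene of the group in both libraries. Its 3 windows, chr8:87226301-87228400, held 716 reads in untreated cells, a mean of 239 reads per window (95% Poisson interval 222 to 257), above 99.6% of all genes. In IL-6-treated cells they held 199 reads, a mean of 68.9 (59.6 to 79.1), which was above 99.8% of all genes. The ratio of IL-6-treated to untreated was 0.289 (95% Clopper-Pearson interval 0.245 to 0.338), a log2 ratio of -1.79. The mean and the SD allow only 1 set of whole reads for the 3 windows in untreated cells, a strongest window with 50.8% of the reads and others with 252 and 100, in an order that the table does not give. After IL-6 only 2 sets fit, 111, 48 and 40 or 108, 60 and 31. The lowest window in untreated cells thus held nearly as many reads as the highest after IL-6, and all 3 windows of both libraries were above the 21 reads that the study took as its limit for a site. The strongest window held 54.3% to 55.8% of the reads after IL-6, and whether it was the same window is not known.

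*Tal1* could be split at the start codon. Its 9 windows, chr4:114735601-114741900, held 226 reads in untreated and 95 reads in IL-6-treated cells, a mean of 25.1 (21.9 to 28.6) against 10.96 (8.87 to 13.4). Its ratio was 0.436 (0.340 to 0.557), or -1.19 in log2. One of the listed transcripts covers only the first window, chr4:114735601-114736300, which holds the start codon and the whole first coding exon from 114735736 on. This window held 83 reads in untreated and 16 in IL-6-treated cells, a ratio of 0.200 (0.109 to 0.344), or -2.29 in log2. The 8 windows that follow held 143 and 79 reads, a ratio of 0.574 (0.430 to 0.760), or -0.80 in log2. The window of the start codon, whose GC-rich sequence is printed above, had thus the lower ratio, and the intervals of the 2 ratios did not overlap. The parts also differ in level, with 83 and 16.6 scaled reads in this window and means of 17.9 and 10.3 after it. Genes with more signal had lower ratios in general, as given further on, and the parts were not compared at equal signal. Among the 8 later windows, at least 1 held 40 to 65 reads in untreated cells, while none held more than 23 reads after IL-6. The 4 annotated start sites of *Tal1* lie upstream of the measured windows.

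*Lmo2*, which encodes the bridging protein, had its lowest ratio in the window of its start sites, on a lower level of signal than *Tal1*. Its 17 windows, chr2:103810001-103821900, held 194 reads in untreated and 147 reads in IL-6-treated cells, a mean of 11.4 (9.86 to 13.1) against 8.98 (7.58 to 10.6), a ratio of 0.787 (0.631 to 0.980), or -0.35 in log2. The first window, chr2:103810001-103810700, holds 5 of the 9 annotated start sites and the stretch printed above. It had 27 reads in untreated and 8 in IL-6-treated cells, a ratio of 0.308 (0.121 to 0.696), or -1.64 in log2. The 8 windows after it had 84 and 60 reads, a ratio of 0.742 (0.523 to 1.05). The last 8 windows had 83 and 79 reads, a ratio of 0.988 (0.717 to 1.36), which is no difference beyond counting error. All 16 windows after the first had 167 and 139 reads, a ratio of 0.864 (0.685 to 1.09). The difference between the parts was not tested. In untreated cells the first window also had a higher level, 27 reads against a mean of 10.5 in the 8 windows after it.

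None of the GATA genes was among the strong ones, and only *Gata3* had an interval that left out no change. *Gata2*, the stem and progenitor cell member, had 10 windows, chr6:88148901-88155900, with 97 reads in untreated and 89 in IL-6-treated cells, a mean of 9.70 (7.87 to 11.8) against 9.24 (7.42 to 11.4). The ratio was 0.953 (0.706 to 1.28), which includes no change and does not show that there was none.

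*Gata1* was close to the floor of what these libraries resolve. Its 6 windows, chrX:7536201-7540400, had 29 reads in untreated and 18 reads in IL-6-treated cells, a mean of 4.83 (3.24 to 6.94) against 3.11 (1.85 to 4.92) and a ratio of 0.644 (0.337 to 1.20). In untreated cells it was above 30.6% of all genes and after IL-6 above 13.7%. A shorter transcript, Gata1-003, adds the 2 windows of chrX:7540401-7541800 on the upstream side, including its own start site at 7541292. These had 17 reads in untreated cells, as 10 and 7, and 4 in IL-6-treated cells, as 3 and 1, a ratio of 0.244 (0.0598 to 0.749). The difference lies beyond counting error, but no window of *Gata1* in either library passed 21 reads. The 2 other annotated start sites of *Gata1* were outside the measured windows.

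*Gata3*, the T cell member, was the only gene of the 10 whose interval lay above 1. Its 28 windows, chr2:9779701-9799300, had 119 reads in untreated and 166 reads in IL-6-treated cells, a mean of 4.25 (3.52 to 5.09) against 6.15 (5.25 to 7.17), a ratio of 1.45 (1.14 to 1.85), or 0.53 in log2. The higher signal was in the 23 windows of the 3′ part, with 89 reads before and 134 after (1.56, 1.19 to 2.07), while the 5 windows of the 5′ part had 30 and 32 reads (1.11, 0.652 to 1.89). These intervals overlap, and a difference between the parts was not tested. Both means were below the median of all genes in the same library.

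**Figure D2:**
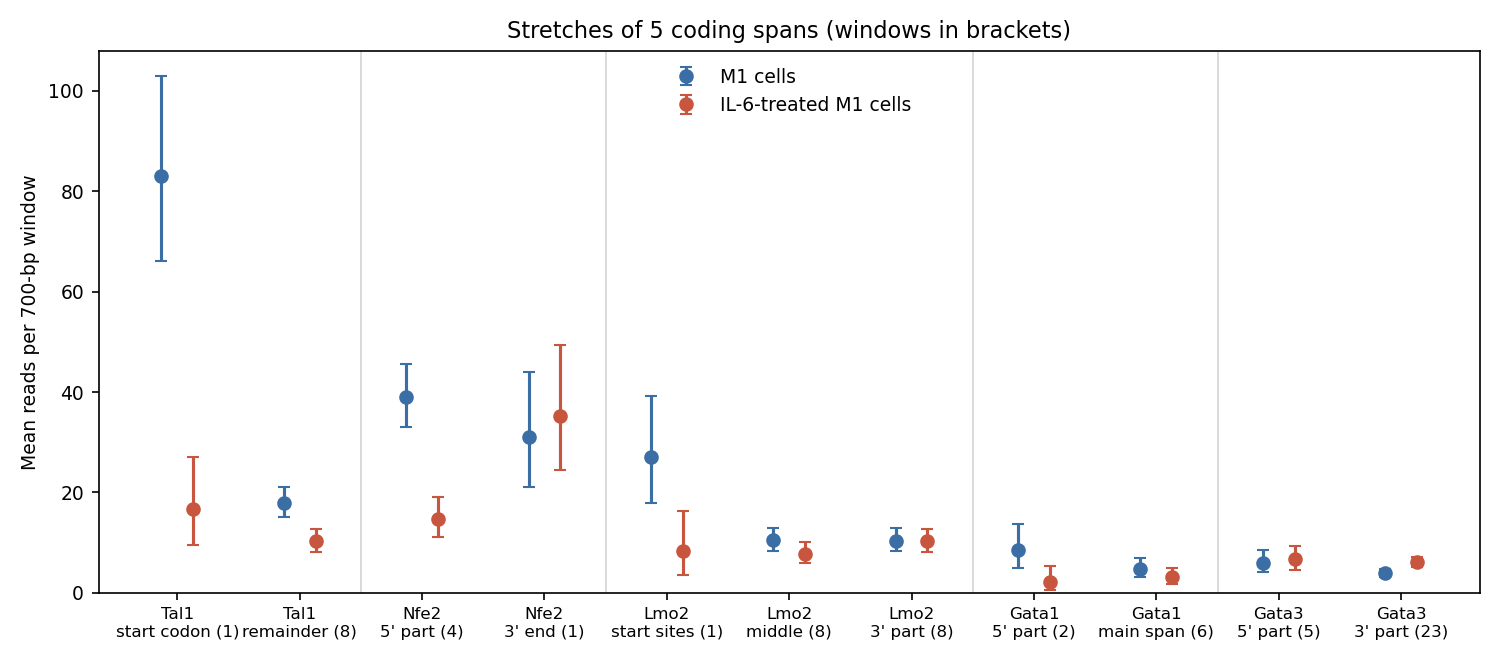
Mean reads per 700-bp window over stretches of 5 genes that their transcripts delimit, with the number of windows in brackets, in untreated and IL-6-treated M1 cells. Bars are exact 95% Poisson intervals of the reads. The start codon window of *Tal1* (83 against 16.6 scaled reads) and the start site window of *Lmo2* (27 against 8.31) stand above the remainder of their genes in untreated cells. For the 3′ end window of *Nfe2* (31 against 35.3) the interval of the ratio includes no change.

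Among the factors that act later in red cells and platelets, *Klf1* and *Nfe2* were strong in untreated cells. The 5 windows of *Klf1*, chr8:87425801-87429300, start with the window of its only annotated start site at 87425827 and of its start codon at 87425874. They held 258 reads in untreated and 99 reads in IL-6-treated cells, a mean of 51.6 (45.5 to 58.3) against 20.6 (16.7 to 25.03). The ratio was 0.398 (0.313 to 0.504) and the log2 ratio -1.32. The untreated mean was above 95.9% of all genes. The strongest window of *Klf1* held 102 to 138 reads in untreated and 27 to 39 in IL-6-treated cells, so that it too was lower, whichever window it was.

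The 5 windows of *Nfe2*, chr15:103078501-103082000, held 187 reads in untreated and 91 reads in IL-6-treated cells, a mean of 37.4 (32.2 to 43.2) against 18.9 (15.2 to 23.2), a ratio of 0.505 (0.389 to 0.652), or -0.98 in log2. The gene is on the minus strand, and its transcripts set apart the window at the 3′ end, chr15:103078501-103079200. That window had 31 reads in untreated and 34 in IL-6-treated cells, a ratio of 1.14 (0.679 to 1.92). The 4 windows toward the start, which include 3 annotated start sites and the start codon stretch printed above, had 156 and 57 reads, a ratio of 0.379 (0.275 to 0.517), or -1.39 in log2. The 2 intervals did not overlap. The strongest of the 4 windows had 73 to 93 reads in untreated and 21 to 27 in IL-6-treated cells.

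*Zfpm1* had the longest span, 79 windows at chr8:124805801-124861100. It held 2530 reads in untreated and 1876 reads in IL-6-treated cells, a mean of 32.0 (30.8 to 33.3) against 24.7 (23.6 to 25.8), a ratio of 0.770 (0.725 to 0.817), or -0.38 in log2. The strongest of its windows had 96 to 428 reads in untreated and 32 to 140 in IL-6-treated cells, the bounds that the mean and the SD allow. A readthrough gene model, Gm20388, covers the same DNA, and reads on this span count for both.

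*Gfi1b* was the gene of this group with a mean that was higher after IL-6. Its 8 windows, chr2:28465501-28471100, had 93 reads in untreated and 115 reads in IL-6-treated cells, a mean of 11.6 (9.38 to 14.2) against 14.9 (12.3 to 17.9). The ratio was 1.28 (0.968 to 1.71), which includes 1. In IL-6-treated cells it was above 83.5% of all genes.

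The order of the genes by mean signal was *Lyl1*, *Klf1*, *Nfe2*, *Zfpm1*, *Tal1*, *Gfi1b*, *Lmo2*, *Gata2*, *Gata1* and *Gata3* in untreated cells. Neighbors in this order differed beyond counting error except for *Gfi1b* and *Lmo2*, *Lmo2* and *Gata2*, and *Gata1* and *Gata3*. The closest pair that did differ was *Nfe2* and *Zfpm1*, with a ratio of 1.17 (1.001 to 1.36). In IL-6-treated cells the order was *Lyl1*, *Zfpm1*, *Klf1*, *Nfe2*, *Gfi1b*, *Tal1*, *Gata2*, *Lmo2*, *Gata3* and *Gata1*. There *Zfpm1*, *Klf1*, *Nfe2* and *Gfi1b* formed a row in which no neighbors differed beyond counting error, and neither did *Tal1*, *Gata2* and *Lmo2*. *Zfpm1* moved from the fourth place to the second and *Gata1* to the last.

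Taking a log2 ratio of -1 or below as lower, 3 of the 10 genes (*Klf1*, *Lyl1* and *Tal1*) were at least 2-fold lower in IL-6-treated cells, beside 13.4% of the 18472 genes in which at least one library had more than 21 reads on the scale of the table, where each read after IL-6 counts as 1.038. *Nfe2*, at -0.98, lay just outside the 2-fold limit and *Tal1*, at -1.19, just inside. None of the 10 was at least 2-fold higher, beside 1.69% of all genes. The interval of the ratio lay below 1 for 6 of the 10 (*Klf1*, *Lmo2*, *Lyl1*, *Nfe2*, *Tal1* and *Zfpm1*), beside 34.4% of all genes, and above 1 for *Gata3* alone, beside 29% of all genes. The median log2 ratio was -0.50 for the 10 genes and 0.03 for all genes, with the 10 reaching from -1.79 to 0.53. These directions rest on the scaling in the table. When the median ratio of 518 strong single windows was set to 1 instead, every log2 ratio was higher by about 1.85, the median of all genes was 1.91, and all 10 log2 ratios were above 0. In that scaling 0 of the 10 genes passed 2-fold downward and 6 upward, beside 0.0815% and 85.0% of all genes.

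The size of the change went with the level of signal across the genome. The median log2 ratio was -0.36 over the 8716 genes whose mean of both libraries was at least 10 reads per window, -1.19 over 2785 genes from 20 up, -1.76 over 769 genes from 40 up and -2.05 over 255 genes from 80 up. Each gene of the group was therefore set beside the genes with a summed signal within 10% of its own. *Lyl1*, with the lowest log2 ratio of the 10, was less reduced than most of its 36 similar genes, whose median was -2.13, and was above 94.4% of them. *Klf1* and *Nfe2* were near the middle of theirs, with medians of -1.29 and -1.08 and percentiles of 46.6 and 56.6. *Tal1* was lower than most of its 1220 similar genes, whose median was -0.37 (percentile 12.5). *Gata1* was at the 4.69 percentile of 810 similar genes with a median of 0.33, with a wide interval of its own, -1.57 to 0.26 in log2, on 29 and 18 reads. *Zfpm1* was above 81.6% of 511 similar genes, whose median was -1.10, *Gfi1b* above 81.4% of 1883 and *Gata3* above 79.0% of 1370. *Gata2* and *Lmo2* were at the 38.6 and 24.5 percentile. These percentiles are a description, and what sets the trend with signal was not tested.

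**Figure D3:**
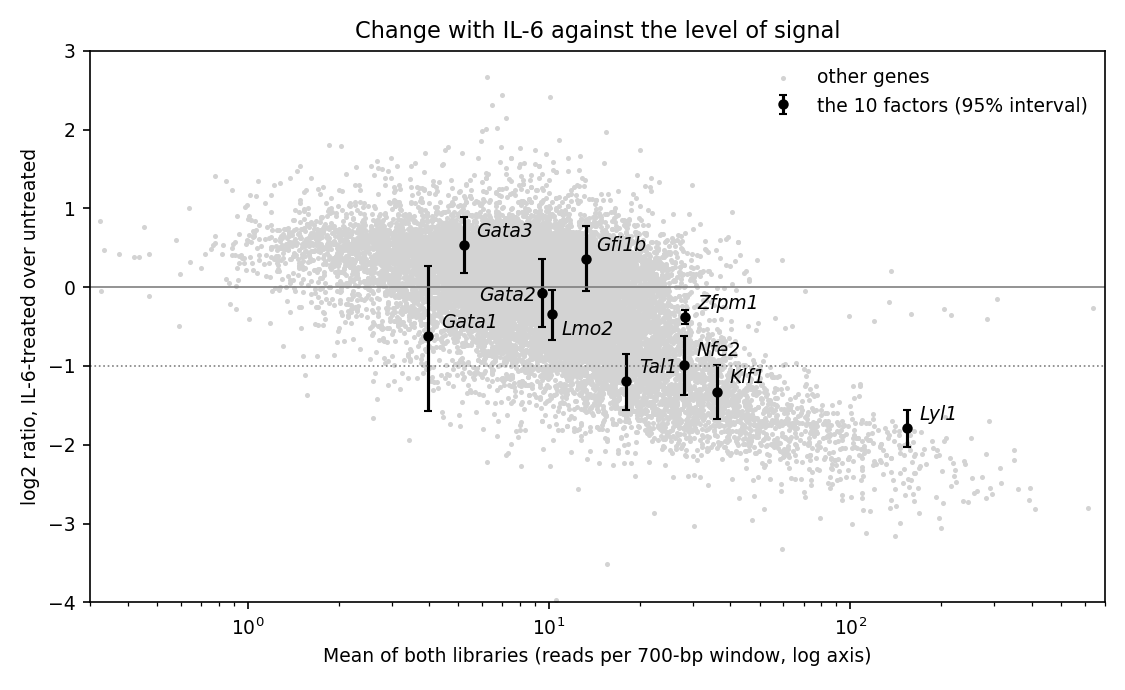
Log2 ratio of IL-6-treated over untreated M1 cells against the mean of both libraries (reads per 700-bp window, log axis) for 18472 genes in grey, of which 14 lie outside the axes, with the 10 factors in black and their 95% intervals. The dotted line marks a 2-fold lower signal. *Klf1* and *Nfe2* lie in the middle of the genes of their level, *Lyl1* and *Zfpm1* above most of them and *Tal1* below most of them. With the scaling on strong windows all points would lie higher by about 1.85.

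The signal was more even after IL-6 in most genes of the genome, and the 10 genes were close to that share. The SD between windows divided by their mean (CV) was lower in IL-6-treated cells in 8 of the 10 genes, beside 84.1% of the 17453 genes with 3 or more windows. The median CV was 0.798 before and 0.572 after for the 10 genes, and 0.971 and 0.712 for all genes. The largest drops were in *Zfpm1*, from 1.41 to 0.558, and in *Tal1*, from 1.12 to 0.519. Counting error alone would give 0.177 and 0.205 for *Zfpm1*. *Gata2* had the most even span in both libraries, with 0.474 and 0.361, and its value after IL-6 was close to the 0.335 that counting error alone would give. In *Lyl1* the CV was 0.555 and 0.586, and in *Gata1* 0.756 and 1.01 on very few reads.

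**Figure D4:**
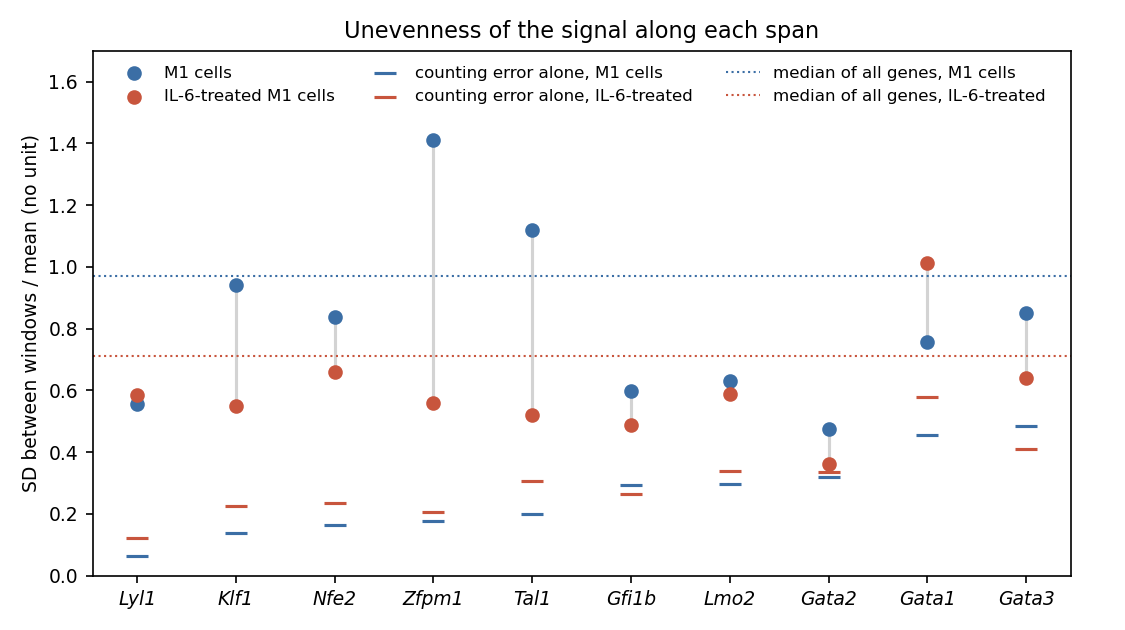
SD between the 700-bp windows of a span divided by their mean (no unit) for the 10 genes in untreated and IL-6-treated M1 cells, with the value that counting error alone would give as dashes and the medians of all genes as dotted lines. *Zfpm1* and *Tal1* drop most, from 1.41 to 0.558 and from 1.12 to 0.519, and *Lyl1* and *Gata1* are the ones that do not drop.

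The genes around *Lyl1*, *Klf1* and *Nfe2* were also lower after IL-6, beyond counting error for all those named here but *Nfix*. *Lyl1* and *Klf1* lie 198 kb apart on chromosome 8, and the 9 genes between them all had lower signal after IL-6, from -1.76 for *Calr*, a chaperone of the endoplasmic reticulum, to -0.04 for *Nfix*, with a median of -0.74. One of the 9, *G430095P16Rik*, lies within *Nfix*. Their untreated means ran from 17.1 to 146 reads per window, and of all genes with a mean of both libraries of at least 10, 20 and 40 reads per window, 67.4%, 88.5% and 98.3% were lower as well. The interval of *Nfix*, 0.916 to 1.03, includes a ratio of 1. *Trmt1*, next to *Lyl1*, had a log2 ratio of -1.94, and *Hnrnpa1* and *Copz1*, the neighbors of *Nfe2*, had -1.92 and -1.59. Next to *Klf1*, *Dnase2a* had one of -1.89 on one side and *Gcdh*, among the 9 above, one of -0.51 on the other. The neighbors of *Tal1* had less signal than *Tal1* itself, 4.70 reads per window in *Stil* and 6.71 in *Pdzk1ip1* in untreated cells, a level at which genes in general were not lower. *Stil* had 263 reads in untreated and 268 in IL-6-treated cells (ratio 1.06, 0.889 to 1.26), and *Pdzk1ip1*, on the other side, had 47 and 85 reads (1.88, 1.30 to 2.74). The intervals of both lay above that of *Tal1*. Beside *Gata1*, *Hdac6* had a ratio of 0.844 (0.664 to 1.07) and *Glod5* one of 1.67 (1.06 to 2.66). The neighbors of *Zfpm1* had intervals that include 1 but also overlap the interval of *Zfpm1*, so no difference from it is shown. The readthrough model *Gm20388*, which spans *Zfpm1* and both neighbors, had a ratio of 0.828 (0.821 to 0.835). *Gm22* had 28.3 and 30.8 reads per window (ratio 1.09, 0.798 to 1.48) and *Trhr2* 16.3 and 16.4 (1.01, 0.751 to 1.35). Beside *Gata2*, whose interval included no change, *Rpn1* had a ratio of 0.571 (0.486 to 0.668) and *Dnajb8* one of 0.991 (0.518 to 1.89).

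The genes of proteins that these factors work with had a median of 11.5 reads per window in untreated cells, beside 18.4 for the 10 genes, and no test compared the lists. Of 18 genes for partners, 1 was at least 2-fold lower and 0 were higher, with 10 intervals below 1 and 3 above and a median log2 ratio of -0.25, beside 13.4% and 1.69% of all genes past 2-fold and 34.4% and 29% with intervals below and above 1. The lowest was *Ldb1*, the LIM-binding protein that joins LMO2 complexes, with 525 reads in untreated and 197 in IL-6-treated cells (0.390, 0.329 to 0.460). The highest was *Bach1*, a repressor that pairs with the same small MAF proteins as NFE2, with 182 and 268 reads (1.53, 1.26 to 1.86). Of 12 paralogs in the table, 11 had more than 21 scaled reads in at least one library. Of these, 0 passed 2-fold in either direction, with 2 intervals below 1 and 6 above. Their median was 0.32, from -0.82 for *Nfe2l2*, the oxidative stress factor NRF2, to 0.71 for *Gata4*, a GATA factor of heart and gut.

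Red cell, megakaryocyte and stem cell genes are described by their counts. The red cell and megakaryocyte lists were drawn up as targets of these factors, and the stem cell list was not. The counts stand beside 13.4% of all genes at least 2-fold lower, 34.4% with an interval below 1 and 29% above 1. Of 19 red cell genes, 1 was at least 2-fold lower and 0 were higher, with 3 intervals below 1, 6 above and a median log2 ratio of 0.14. The highest was *Sox6*, a red cell factor, with 1411 and 2035 reads (1.497, 1.40 to 1.60). Of 11 megakaryocyte genes past the same limit on scaled reads, 0 passed 2-fold in either direction and the median was 0.19, from *Gp1ba* at -0.49 (0.708, 0.342 to 1.43) to *Gp6*, the collagen receptor, at 0.76 (1.698, 1.26 to 2.30). Of 10 stem cell genes, 1 was lower, *Hhex*, a homeobox factor, at -2.04 with 352 and 82 reads, and the highest was *Mecom* at 0.45. Their median was 0.05. Intervals lay below and above 1 for 2 and 4 of the 11 megakaryocyte genes and for 2 and 3 of the 10 stem cell genes.

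Lists of other lineages are given beside the same 13.4% lower and 1.69% higher of all genes, with no test between lists. Of 12 T cell genes, 1 was lower, *Cd3d* at -1.08 with 370 and 168 reads, and the median was 0.21. Of 8 mast cell genes, 1 was higher, *Fcer1a*, a chain of the IgE receptor, with 21 and 45 reads (2.22, 1.30 to 3.93), the lowest was *Hdc* at -0.89, and the median was 0.57. Of 9 measured myeloid factors, 5 were at least 2-fold lower and 0 higher, with a median of -1.16. They ran from *Cebpb* at -1.91, with 181 and 46 reads, to *Klf4* at 0.32, whose interval of 0.744 to 2.12 includes 1. Intervals lay below 1 for 1 T cell gene, 1 mast cell gene and 8 myeloid factors, beside 34.4% of all genes. Above 1 they were 3, 5 and 0, beside 29% of all genes. The median mean of the myeloid factors was 28.9 reads per window in untreated cells, a level at which genes in general were lower too, that of the mast cell genes 5.83 and that of the red cell genes 8.62, so that the lists differ in level as well. Under the scaling on strong windows these directions would move up by the same 1.85.

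All 12 markers of myeloid progenitors and macrophages had reads in both libraries, with untreated means from 2.75 reads per window for *Emr1* to 129 for *Cd68*, and so did the 5 red cell and 3 T cell markers, with 2 to 51.6 and 6.6 to 46.2 reads per window. The myeloid markers added up to 371 in untreated and 160 in IL-6-treated cells. The red cell markers, *Klf1* among them, came to 95.1 and 78.1. These sums do not separate the lineages, and no cell type was called from DNase I signal.

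In base composition the spans of the 10 genes were all above the median gene in G and C, from 46.8% in *Gata3* to 57.1% in *Lyl1*, beside 45.6% for all genes. *Lyl1* and *Zfpm1* were above 95.5% and 95.01% of all genes, and *Gata2*, with an ordinary signal, was above 92.2%. GATA motifs were not dense. They ran from 0.794 per kb in *Tal1* to 2.27 per kb in *Lmo2*, beside a median of 1.93 per kb, and *Gata3*, *Lmo2* and *Nfe2* were the 3 above that median. CACCC-boxes ran from 0.476 per kb in *Gata1* to 5.00 per kb in *Gata2*, beside a median of 1.19. The part of base composition in the signal was not tested.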

How the data were processed

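DNase I hypersensitivity was measured in 1 library of untreated and 1 of IL-6-treated M1 cells. The authors digested nuclei with DNase I, sequenced the small fragments and aligned trimmed reads to NCBIM37 with BWA. They plotted the sites at the *c-myb* locus with Seqmonk. For each coding span the deposited signal is a mean and an SD over its 700-bp windows, already scaled by the authors, and a column without values was not used. Reads were recovered by dividing by the worth of 1 read (1.038 after IL-6) and were within 0.05 of a whole number in all rows, and the squared SDs in 99.8% of rows within the same tolerance. Transcripts sharing an end gave the reads of the windows between their other ends, and sets of whole reads that fit a mean and SD were enumerated. Before the log2 ratio, 0.5 reads were added on both sides. No test across libraries was possible, so ratios have 95% Clopper-Pearson intervals and levels exact Poisson intervals.

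All 10 genes are named, and of each list the lowest and the highest log2 ratio among genes in which at least one library had more than 21 reads on the scale of the table, where each read after IL-6 counts as 1.038. The genes on either side were taken by position. The members and lists were chosen with earlier results of these data known. The steps were tested on simulated data. Sptb, Ahsp and Gfi1 were not analysed here, and a few genes that the naming rule would pick are not reported here. Alternatives covered the scaling, the reads added (5), the transcript, the fold (1.5) and the filter (more than 50 reads or none). Python 3.11.15, numpy 2.4.6, pandas 2.3.3, scipy 1.17.1 and matplotlib 3.10.9 were used.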

Additional observations from a re-analysis of the deposited data

How the results depend on the processing

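No paired analysis was possible because only 1 library of each kind exists here. Of 110 alternative values for 31 results, 83 stayed within the interval or margin of the reported value, 10 reversed, meaning that the median, or a value whose interval left out no change, turned sign, and 17 moved in another way, among them *Gata1* and *Gata2*, whose intervals included no change and whose sign turned too. With no scaling, with the median gene set to 0 and with the shortest transcript, 4 genes in place of 3 were at least 2-fold lower, *Nfe2* being the one added. Scaling by the total over coding spans, 5 added reads and either filter left 3. Beside these counts, 14.5% of all genes were at least 2-fold lower with no scaling and 14.0% with the median gene set to 0. With the total over coding spans the share was 12.6%. Shares were not counted for the transcript, the added reads or the filters. The scaling on strong single windows (518 of 3893, at least 22 reads in both libraries) reversed *Tal1* to 0.65, *Lyl1* to 0.053, *Lmo2* to 1.497, *Zfpm1* to 1.47, *Klf1* to 0.52, *Nfe2* to 0.86 and the median to 1.33, and moved *Gata1* to 1.20, *Gata2* to 1.77, *Gata3* to 2.38 and *Gfi1b* to 2.20, with 0 genes at least 2-fold lower and 6 higher. No intervals were computed for these values, so a turned sign, as of *Lyl1* at 0.053, need not lie beyond counting error. The scaling assumes that strong windows did not change as a whole. In it the later windows of *Tal1* were at 1.041, the first window of *Lmo2* at 0.14 and its first 9 windows at 1.19. The transcript with the fewest windows gave -2.29 for *Tal1*, -1.39 for *Nfe2* and 0.14 for *Gata3*, with untreated means of 83.0 for *Tal1* and 6 for *Gata3*, since it covers fewer windows. At a fold of 1.5, 5 genes were lower, with *Nfe2* and *Gata1* added, and the interval of *Gata1* included no change. The share of all genes past this fold was not counted, and the lower quartile of the log2 ratio over all genes was -0.52. Depth limits *Gata1* most, with 29 and 18 reads, and distal elements outside coding spans were not analysed here.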
